A study of Mus musculus with 4 samples.

Results

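The 10 genes described here encode heat shock proteins and related chaperones: the cytosolic HSP90 pair Hsp90aa1 and Hsp90ab1, the HSP70 family members Hspa1a, Hspa1b, Hspa4, Hspa5, Hspa8 and Hspa9, and the mitochondrial chaperonin pair Hspd1 and Hspe1. They were taken by symbol, and all 10 were found among the 20171 genes of the gene table, with 183 of the 68012 isoforms of the isoform table. Full-length cDNA of single cells was read with HIT-scISOseq, a method that joins cDNA molecules for PacBio sequencing and counts molecules by unique molecular identifiers (UMIs). The groups were 10 oocytes (unmated, 20 h after hCG), 9 zygotes (22 to 24 h), 5 early 2-cell embryos (E2C, 30 to 32 h), 6 late 2-cell embryos (L2C, 46 to 48 h), and 5 4-cell (54 to 56 h), 4 8-cell (68 to 70 h) and 4 16-cell embryos (78 to 80 h), with 121 cells in all. In addition there were 22 single cells of the 32-cell stage, 13 of the early blastocyst (88 to 90 h) and 5 cultured mouse embryonic stem cells (mESC), and a separate batch, batch 4, of intact, halved and quartered oocytes. All mothers were superovulated with PMSG and hCG at 6 to 8 weeks of age, and the strain label reads DBA/2J x C57BL/6J. The methods of the study instead name C57BL/6J females and DBA/2NCrl males, so the unmated oocytes came from C57BL/6J females. The mESC were of the male E14 Tg2A line.

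Chaperones bind unfolded or partly folded proteins and release them in cycles that burn ATP. HSP70 proteins take up new chains early, HSP90 proteins act later on clients such as kinases and hormone receptors, and the chaperonin HSP60 with its lid HSP10 folds proteins inside mitochondria. In the mouse embryo, members of the HSP70 family have long been known among the genes transcribed when the embryonic genome first becomes active at the 2-cell stage, while the oocyte stores maternal RNA for the divisions before that.

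Levels are given as copies per 100,000 UMIs of a cell, averaged over the cells of an embryo, so that each oocyte, zygote or embryo counts once. Log2 changes are on the log2(copies + 1) scale, which understates changes of low genes, whereas values given as -fold are ratios of mean copies. A gene was called at a log2 change over 1 with an unadjusted limma p under 0.01. The value of 1 cell is a share of its own UMIs, so a loss of a transcript's molecules and a gain of other RNAs cannot be told apart. Gene UMIs per cell ran from 166731 to 389775 in oocytes and zygotes and from 4985 to 105534 between E2C and 16-cell, so single UMIs weigh more in the later cells. The 8 oocyte genes fixed as markers, such as Gdf9 and Zp3, were all detected in the oocytes, where their summed level was between 3114 and 4269. In single cells of the 4-cell embryos it was between 39.2 and 391. Of 9 listed granulosa and cumulus genes in the table, all 9 gave some UMIs in zygotes. Their summed level stayed at or under 9.81 in every oocyte, zygote and single cell of an embryo. Its medians over cells were 8.56 in oocytes, 8.25 in zygotes, 3.26 at E2C, 0 at L2C, 2.28 at 4-cell, and 0 at 8-cell and 16-cell. The sequencing run of an oocyte or zygote was taken from the number that ends its cell barcode in a supplementary cell list of the study. For later embryos the run was not used here, and its part in their differences was not tested.

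Among the 10 genes, the summed level was 183 ± 51.0 (SD, n = 10) in oocytes and 282 ± 82.2 (n = 9) in zygotes, was 181 ± 11 (n = 5) at E2C, and then stood at 262 ± 86.2 (n = 6), 356 ± 97.7 (n = 5), 936 ± 141 (n = 4) and 1402 ± 216 (n = 4) at L2C, 4-cell, 8-cell and 16-cell. Medians over single cells were 1391 at 32-cell, 1411 in the blastocyst and 1003 in mESC. Hsp90aa1, Hsp90ab1 and Hspa8 made up most of the sum from the 8-cell stage to the blastocyst, while in mESC Hspe1 was the member with the highest median (387). The genes did not follow 1 shared course, and they are described below by role.

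**Figure D1:**
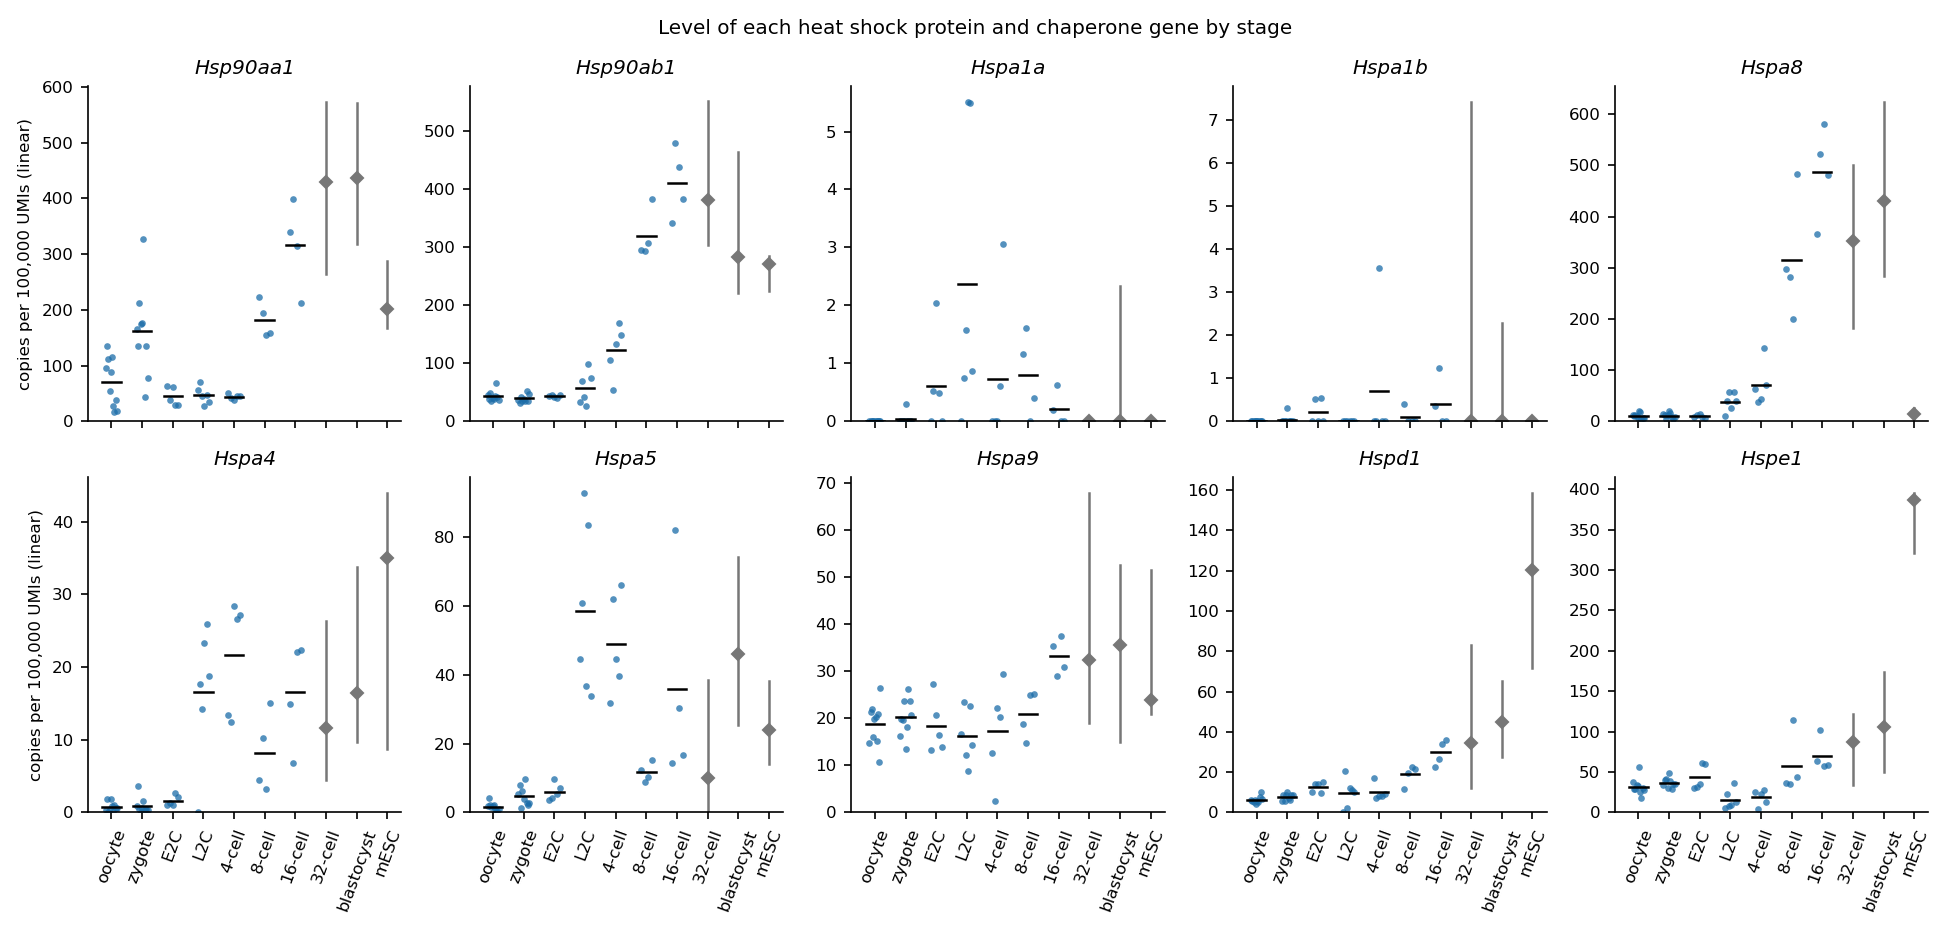
Level of the 10 genes (vertical axes, copies per 100,000 UMIs, linear and scaled per gene) by stage; blue points are oocytes, zygotes or embryos with the mean as a black bar, and grey diamonds with lines give the median and range over single cells of the 3 latest groups. Hspa8 and Hsp90ab1 are highest at the 16-cell stage among the embryo stages, Hspa5 and Hspa4 at L2C and 4-cell, and Hsp90aa1 has a first maximum in zygotes.

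Hsp90aa1 (chr12:110690605-110702728, minus strand, mm10) encodes the stress-inducible HSP90 alpha, and it was the member that rose from oocyte to zygote and fell back by E2C. Its level ran from 16.1 to 135 in oocytes (median 71.7) and from 44.1 to 328 in zygotes (median 166). The 5 E2C embryos had 63.9, 38.3, 62.0, 28.7 and 29.7 copies, the 6 L2C embryos 27.4 to 70.4 (median 46.4), and the 5 4-cell embryos 51.3, 42.1, 38.3, 44.9 and 45.2. The 8-cell embryos had 222, 194, 155 and 158 copies and the 16-cell embryos 340, 398, 315 and 213. Zygotes as a group thus stood above oocytes and above E2C embryos with overlapping ranges, whereas every 8-cell embryo stood above every 4-cell embryo. The mean rose 2.30-fold from oocyte to zygote (log2 1.33 ± 0.27 (SE), adjusted p = 2.67e-04), fell by 1.76 on the log2 scale to E2C (SE 0.37, adjusted p = 3.53e-04), and rose 4.11-fold from 4-cell to 8-cell (log2 2.03 ± 0.54, adjusted p = 0.00518).

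Oocyte levels of Hsp90aa1 differed between runs: 97.2 ± 29.7 (n = 5) in run 1, 115 in the 1 oocyte of run 2, and 25.2 ± 10.3 (n = 4) in run 3. Zygotes were higher than oocytes within each run, by 0.82, 1.12 and 1.73 on the log2 scale of the mean levels plus 1. With the run as a block the change was 1.14 (adjusted p = 2.41e-04) and stayed called.

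Hsp90ab1 (chr17:45567775-45573271, minus strand) encodes HSP90 beta, the constitutive form. Oocytes ranged from 34.6 to 65.3 copies (median 40.6), zygotes from 31.7 to 51.3 (median 36.3), E2C embryos from 40.4 to 45.9 and L2C embryos from 26.6 to 98.6 (median 55.3). The 4-cell embryos had 105, 54.3, 133, 169 and 149 copies, the 8-cell embryos 296, 294, 307 and 382, and the 16-cell embryos 342, 480, 438 and 382. Up to E2C the groups lay on top of each other, and from 4-cell to 8-cell they did not overlap. The gene rose 2.13-fold from L2C to 4-cell (log2 1.21 ± 0.30, adjusted p = 0.0123) and 2.62-fold from 4-cell to 8-cell (log2 1.23 ± 0.28, adjusted p = 0.00113).

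**Figure D2:**
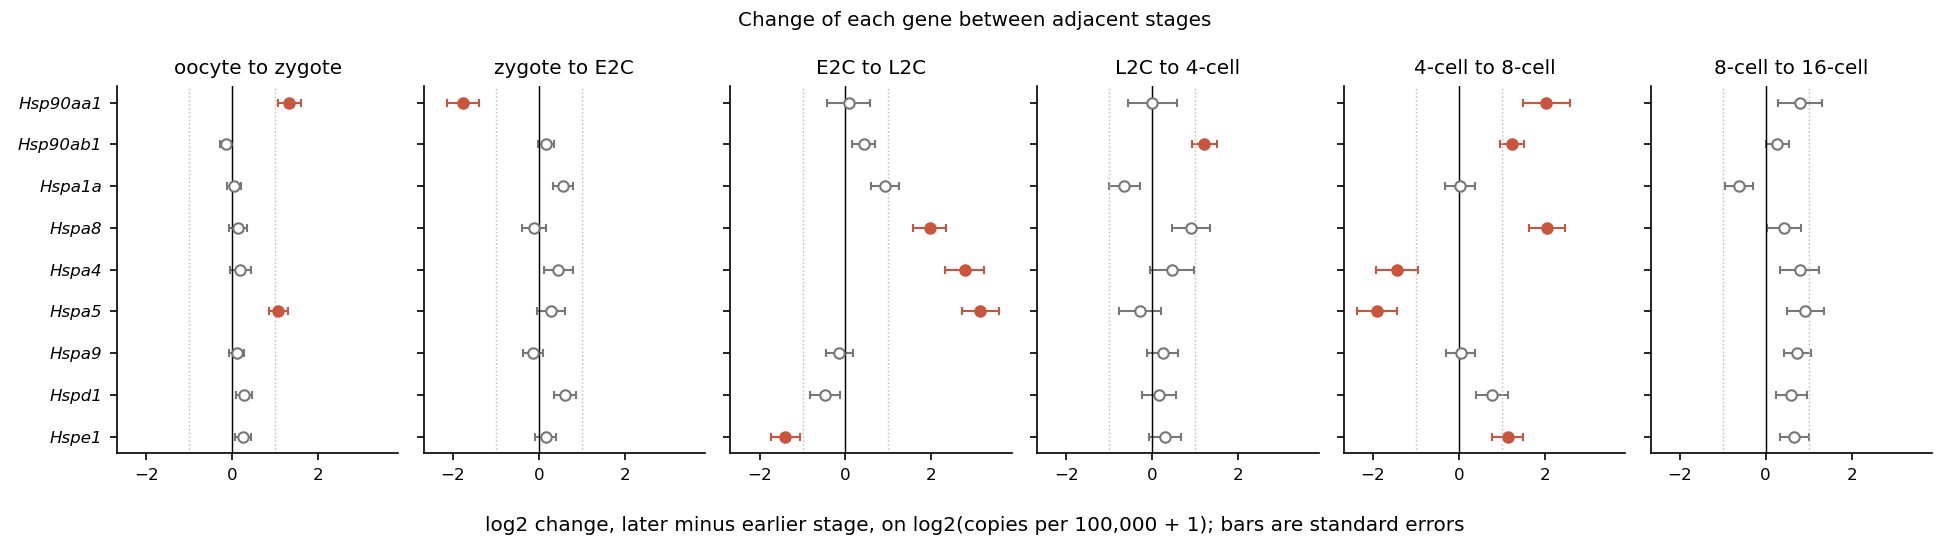
Change of the 9 tested genes between adjacent stages (horizontal axes, log2 change on log2(copies per 100,000 + 1), later minus earlier; whiskers are standard errors); filled red points were called, open grey points were not, and dotted lines mark a log2 change of 1. The 4-cell to 8-cell step holds 6 called genes, 4 higher and 2 lower, and the 8-cell to 16-cell step none.

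The isoform table showed that most Hsp90aa1 molecules of oocytes and zygotes ended before the stop codon. The stop codon used is the 1 shared by most annotated coding transcripts, whose last base lies at position 110691540, and 18 of the 51 Hsp90aa1 isoforms end before it. The share of such molecules was 78.1% to 95.5% in the 10 oocytes (mean 88.4% ± 6.04) and 76.3% to 96.6% in the 9 zygotes (89.7% ± 6.39). The E2C embryos had 23.0%, 2.70%, 20.7%, 2.22% and 21.2%, from 33 to 87 UMIs each. All E2C embryos thus lay below all zygotes, and within E2C 3 embryos lay near 21% and the other two below 3%. The means were 2.68% ± 2.69 at L2C (n = 5 with 10 UMIs or more), 0.953% ± 1.12 at 4-cell (n = 4), 1.05% ± 1.34 at 8-cell (n = 4) and 1.91% ± 0.913 at 16-cell (n = 4), and no cell of the 32-cell stage, blastocyst or mESC exceeded 9.62%. From zygote to E2C the share fell by 75.8 percentage points (adjusted p = 1.69e-14) against 21.2% of genes called lower, and from E2C to L2C by 11.3 points (adjusted p = 0.0149) against 6.83%. The last call was lost without E2C embryo 1, 3 or 5, where the change was -9.03, -9.60 and -9.47 points (adjusted p = 0.0693, 0.0545 and 0.0599). Across all genes with such molecules, 128 of 570 (22.5%) changed their share from zygote to E2C, 121 of them downward, so a fall was common among the genes tested. Hsp90aa1 was also a gene that the study itself examined for truncated transcripts, so its choice was not independent of this pattern. That was a separate assay, RT-PCR of oocyte and mESC RNA, and the study reported no stop codon in the Sanger sequences of the candidate products.

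For Hsp90ab1 the shares before the stop codon were 0% to 23.7% in oocytes (median 10.3%), 4.82% to 27.3% in zygotes (median 19.2%) and 1.43%, 0%, 3.08%, 2.82% and 4.26% at E2C. Its mean fell from 17.0% ± 8.13 to 2.32% ± 1.64 from zygote to E2C, a drop of 14.7 points (adjusted p = 3.52e-04), and L2C to 16-cell embryos had means of 0.352% or less. Run 3 stood apart, with Hsp90ab1 shares of 0% to 7.02% in oocytes and 4.82% to 10.1% in zygotes against 10.7% to 23.7% and 18.8% to 27.3% in run 1. From oocyte to zygote no member was called (2.46% of all genes were), and from E2C to L2C Hsp90aa1 alone (23.4% of all genes). Hspa8 and Hspa9, the other members tested at these early steps, had mean shares of 3.32% or less and no called change. No isoform of Hspa4, Hspd1 or Hspe1 ended before the stop codon.

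**Figure D3:**
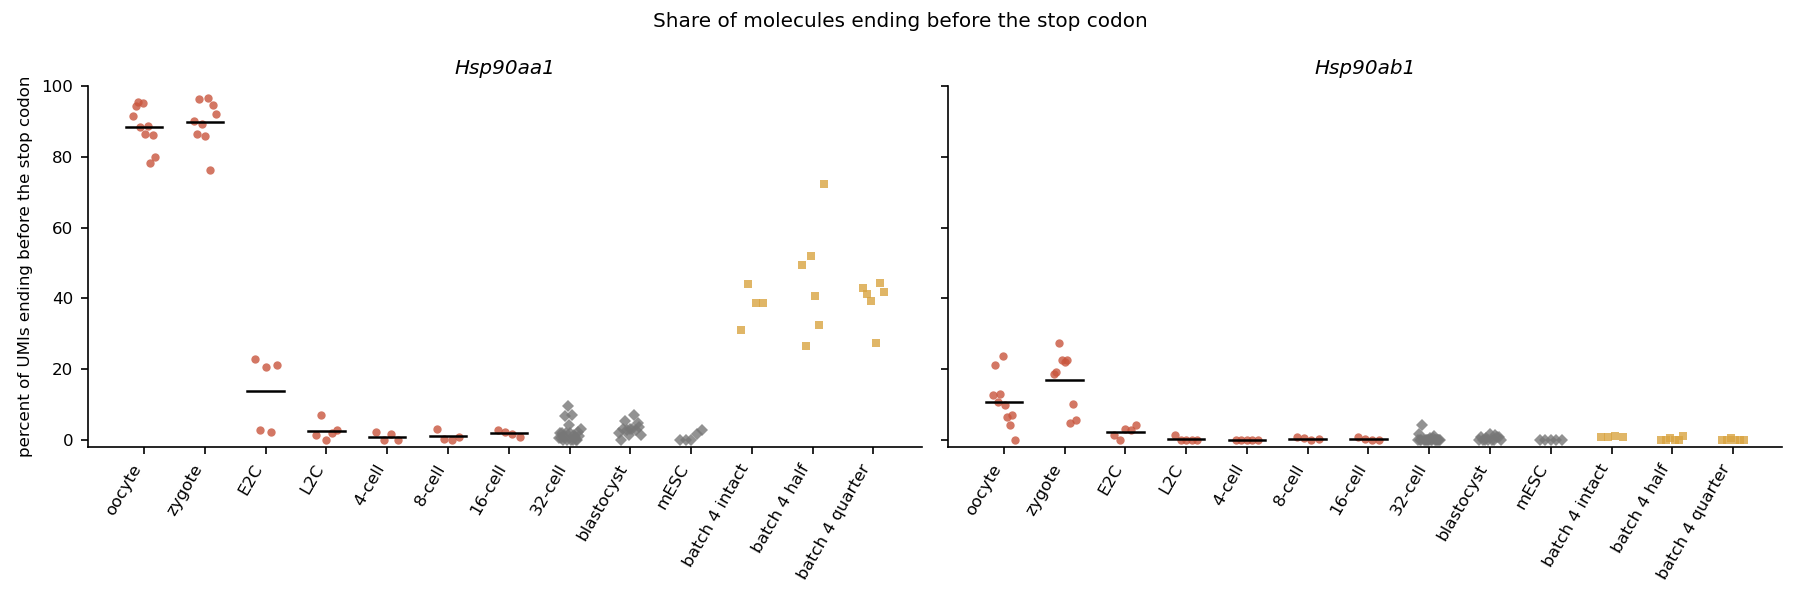
Percent of UMIs ending before the stop codon (vertical axis, linear) for Hsp90aa1 and Hsp90ab1; red circles are oocytes, zygotes or embryos with 10 or more UMIs of the gene and black bars their means, grey diamonds are single cells, and yellow squares are columns of batch 4. Hsp90aa1 oocytes and zygotes of the first 3 batches lie above 76%, the E2C embryos at or under 23.0%, and the oocytes of batch 4 between 26.7% and 72.2%.

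Batch 4 gave lower shares for the same cell type. Its 4 intact oocytes had 31.0%, 44.1%, 38.8% and 38.6% of Hsp90aa1 molecules ending before the stop codon, and pooled UMIs gave 37.3% in intact, 45.6% in halved and 37.8% in quartered oocytes, against 91.0% in the pooled oocytes of the first 3 batches. For Hsp90ab1 the pooled shares in this batch were 0.896%, 0.265% and 0.121%, against 10.4%. In both sets Hsp90aa1 had the higher share of the pair. Which pieces came from the same oocyte was not used here, and no test was run between the batches.

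Counting only molecules that reach the stop codon turned the Hsp90aa1 step from zygote to E2C around. Per 100,000 isoform UMIs, molecules reaching the stop codon numbered 8.42 ± 5.04 in oocytes (n = 10), 17.9 ± 8.30 in zygotes (n = 9), 44.7 ± 14.5 at E2C (n = 5), 47.6 ± 14.5 at L2C (n = 6), 44.3 ± 4.49 at 4-cell (n = 5), 166 ± 30.0 at 8-cell (n = 4) and 272 ± 45.5 at 16-cell (n = 4). Molecules ending before it numbered 86.2 ± 56.8, 198 ± 109, 8.06 ± 7.50, 2.52 ± 2.99, 0.377 ± 0.546, 2.19 ± 2.81 and 5.80 ± 2.57 at the same stages. Fitted on the first set alone, an alternative added after seeing the data, Hsp90aa1 rose by 1.25 on the log2 scale from zygote to E2C (adjusted p = 0.00179) where the gene table gave a fall by 1.76, while oocyte to zygote (1.11) and 4-cell to 8-cell (1.94) kept their direction and their call. The decrease of the summed gene at E2C lay in the molecules ending before the stop codon. Molecules reaching the stop codon were not all whole. In pooled UMIs of zygotes 110 spanned the coding region and 199 reached its end but began after the start codon, and at E2C 51 and 191 did. The rise to E2C is thus not one of full-length molecules alone.

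**Figure D4:**
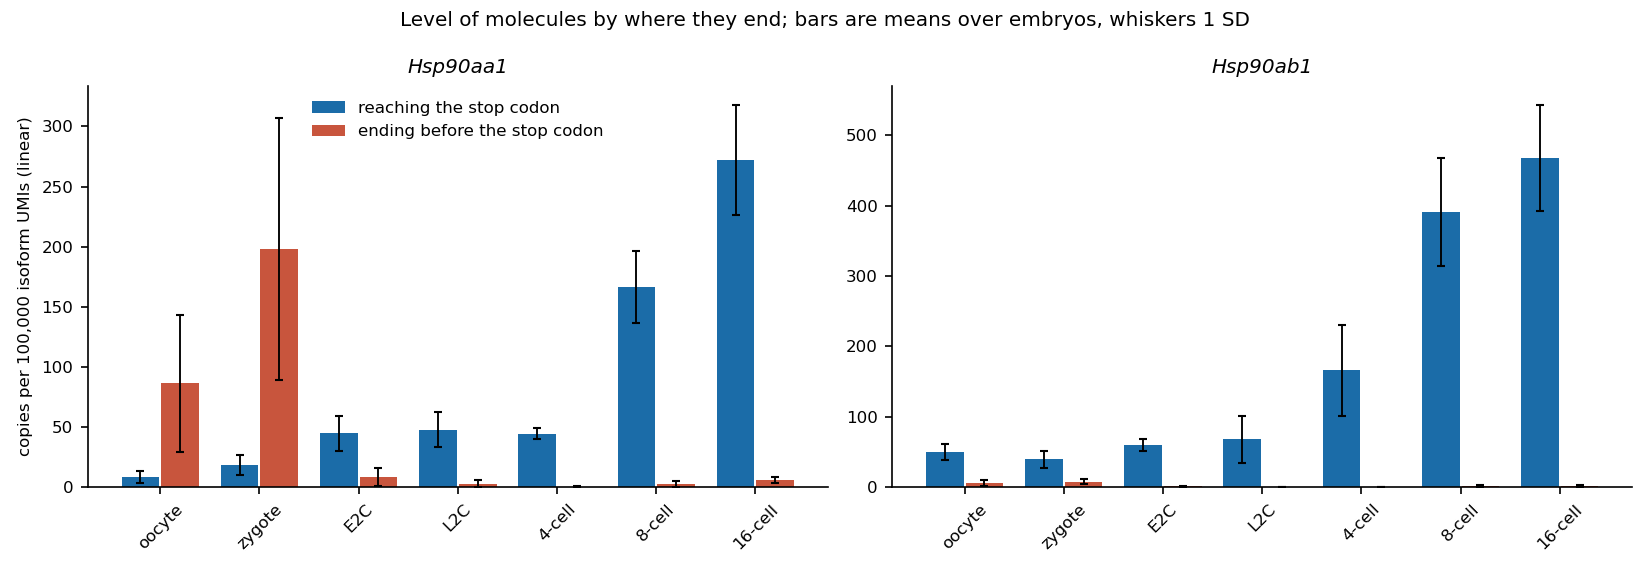
Mean level of molecules that reach the stop codon (blue) or end before it (red) by stage (vertical axes, copies per 100,000 isoform UMIs, linear from 0; whiskers 1 SD over oocytes, zygotes or embryos). Blue bars include molecules that begin after the start codon. For Hsp90aa1 the red bar is 198 in zygotes and 8.06 at E2C while the blue bar is 17.9 and 44.7. For Hsp90ab1 the blue bar is the taller at every stage.

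At the isoform level, the leading Hsp90aa1 isoform of oocytes and zygotes was PB.18355.252 (chr12:110694238-110696486, 5 exons, 1004 bases), which stops inside exon 5. It ran from 10.2 to 74.0 copies in oocytes (median 45.7), from 27.9 to 208 in zygotes (median 93.4), and from 0 to 9.44 at E2C. The full-length isoform PB.18355.19 (chr12:110691005-110696447, 11 exons, 2933 bases) averaged 2.22, 5.19, 8.26, 13.7, 22.6, 59.7 and 125 copies from oocyte to 16-cell. Its ranges in zygotes (2.63 to 11.3) and at E2C (3.37 to 13.3) overlapped and its change between them was not called, whereas all E2C values of PB.18355.252 lay below all zygote values. As shares of the gene, PB.18355.252 went from 47.2% ± 6.65 in zygotes to 5.28% ± 6.03 at E2C and PB.18355.238 from 26.3% ± 4.96 to 3.66% ± 4.12, while PB.18355.20, which reaches the stop codon but begins far inside the gene, went from 1.43% ± 1.05 to 17.7% ± 9.07. In Hsp90aa1 5 isoforms were called as switched between zygote and E2C (gene-level adjusted p = 3.88e-09), and in Hsp90ab1 1, PB.33516.490, from 14.7% ± 6.73 to 1.70% ± 1.2 (gene-level adjusted p = 0.00208), against 48 of all 10843 isoforms tested (0.443%). The Hsp90ab1 switch was lost without E2C embryo 2 (a change of -12.6 points, with the gene-level value over its limit), and PB.18355.271, another of the 5, without E2C embryo 2 or 4. No member isoform was called as switched in the other 5 comparisons, where 0.00513%, 6.57%, 0.168%, 0% and 0% of all isoforms were, in stage order.

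The ends of these isoforms are shown because they mark where the shorter molecules stop. Each line gives, on the RNA strand, the last 10 bases of the isoform followed by the next 20 bases of the transcript, with the A bases of those 20 in capitals.
PB.18355.252 of Hsp90aa1, chr12:110694218-110694247: gataaacctgAAAtAgAAgAtgttggctct
PB.18355.238 of Hsp90aa1, chr12:110694114-110694143: agaagaactcAAcAAAAcAAAgccgAtttg
PB.18355.213 of Hsp90aa1, chr12:110692623-110692652: gaacctctgcAAAAttAtgAAAgAtAtttt
PB.18355.217 of Hsp90aa1, chr12:110692670-110692699: gatgaagaggAAAAgAAgAAAcAggAAgAg
PB.33516.490 of Hsp90ab1, chr17:45570402-45570431: ggcaaagacaAgAAAAAgAAAAcAAAgAAg

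Hsp90aa1 ends had 7 to 13 A in 20 in the 4 examples, and the Hsp90ab1 end 15. Over the 16 Hsp90aa1 isoforms with 20 exon bases after their end, the median was 13 A and 87.5% had 8 or more, and over the 6 of Hsp90ab1 the median was 15 and 100% had 8 or more. Over all 2243 such isoforms the median was 7 and 49.4% had 8 or more, and over all windows of the same transcripts 5 and 21.7%. The most abundant Hsp90aa1 isoform, PB.18355.252, lay at the median of all isoforms. These medians count each isoform once, whatever its number of molecules. Of the 16, PB.18355.252, PB.18355.238 and PB.18355.213, with 7, 10 and 10 A, had 2379, 1406 and 333 UMIs. Each of the others had 72 UMIs or fewer. AATAAA or ATTAAA stood in the last 40 bases of 0 of the 16 and 0 of the 6 isoforms, of 35.5% of the 2243, and of 73.5% of the 1075 annotated ends of those transcripts. The A content was read from the reference transcripts, and its part in the shares was not tested.

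Hspa8 (chr9:40800984-40810087, plus strand) encodes HSC70, the constitutive cytosolic HSP70. It ran from 4.38 to 19.2 copies in oocytes (median 10.2), from 4.59 to 19 in zygotes (median 11.5), and was 8.73, 12.5, 13.4, 8.47 and 6.5 in the E2C embryos. It ran from 11.1 to 57.4 at L2C (median 39.4), and was 62.4, 37.0, 43.0, 144 and 70.7 at 4-cell, 298, 282, 201 and 483 at 8-cell, and 367, 521, 581 and 482 at 16-cell. The groups were level up to E2C, and each 8-cell embryo lay above each 4-cell embryo. Hspa8 rose 3.88-fold from E2C to L2C (log2 1.96 ± 0.39, adjusted p = 2.09e-05) and 4.43-fold from 4-cell to 8-cell (log2 2.06 ± 0.42, adjusted p = 2.72e-04). Cells of the 32-cell stage and the blastocyst had medians of 351 and 430, whereas the 5 mESC had 7.01 to 25.8 (median 13.2, 16 UMIs in all). Hspa8, Hspe1 and Hsp90ab1 have processed pseudogenes, and reads that these copies share with the genes could be placed on either, so their levels carry that uncertainty.

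Hspa1a and Hspa1b, the stress-inducible HSP70 pair on chromosome 17, were at the edge of detection. In oocytes both were at 0 UMIs in all 10 cells. Hspa1a gave 1 UMI in zygotes, 6 at E2C, 16 at L2C, 6 at 4-cell, 8 at 8-cell and 3 at 16-cell, and its highest embryo had 5.51 copies, at L2C. From E2C to L2C its change was 0.92 ± 0.32 with an adjusted p of 0.0113, under the limit on size, and without E2C embryo 3 it was 1.21 and called. Hspa1b gave 2 UMIs or fewer at each stage up to 8-cell and 6 at 16-cell, did not pass the filter and was not tested. The 300 bases around the starts of the pair (RefSeq, GRCm38.p6) are identical at 296 positions, and both hold GAANNTTC, a heat shock element of 2 units found in 7.86% of 32851 promoters, 104 bases before the start. The RNAs of the pair are near-identical copies, so the split of molecules between them is uncertain.

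Hspa4 (chr11:53259814-53300457, minus strand) encodes APG-2, an HSP110-type exchange factor that reloads HSP70 with ATP. It was near absent early, with 0 to 1.86 copies in oocytes, 0 to 3.61 in zygotes and 1.02 to 2.69 at E2C, and stood at 0 to 25.9 at L2C (median 18.2). The 4-cell embryos had 13.4, 12.5, 28.5, 26.6 and 27.2 copies, the 8-cell embryos 4.42, 10.2, 3.17 and 15.1, and the 16-cell embryos 14.9, 6.87, 22.1 and 22.4. All L2C embryos but the 1 at 0 lay above all E2C embryos. Hspa4 rose from E2C to L2C by 2.77 ± 0.46 on the log2 scale (adjusted p = 5.04e-07) and fell by 1.44 from 4-cell to 8-cell (SE 0.49, adjusted p = 0.034). That fall lost its call under 11 alternatives, among them the UMI count tests and leaving out 4-cell embryo 4 or 5 or 8-cell embryo 1, with log2 values from -1.49 to -0.86.

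Hspa5 (chr2:34771970-34777547, plus strand) encodes BiP, the HSP70 of the endoplasmic reticulum (ER) and a classical target of the unfolded protein response. Oocytes ranged from 0.487 to 4.18 copies (median 1.67), zygotes from 1.38 to 9.61 (median 3.93), E2C embryos from 3.70 to 9.64 and L2C embryos from 33.7 to 92.7 (median 52.6). The 4-cell embryos had 31.9, 61.9, 44.7, 39.7 and 65.9 copies, the 8-cell embryos 12.2, 8.91, 10.4 and 15.3, and the 16-cell embryos 14.4, 82.1, 30.2 and 16.7. L2C and 4-cell embryos lay above all earlier groups and above all 8-cell embryos, and 1 16-cell embryo was far above the other three. Hspa5 rose 2.80-fold from oocyte to zygote (log2 1.08 ± 0.23, adjusted p = 5.71e-04), although with the run as a replicate block the change was 0.97 and under the limit on size. It rose 9.81-fold from E2C to L2C (log2 3.14 ± 0.44, adjusted p = 9.65e-09) and fell by 1.91 from 4-cell to 8-cell (SE 0.47, adjusted p = 0.0024). The 8-cell to 16-cell change of 0.93 ± 0.44 was not called (adjusted p = 0.404). It was called by limma without array weights (1.22, adjusted p = 0.233). On the recovered UMIs it was called by edgeR (1.75, adjusted p = 0.0286) and DESeq2 (1.65, adjusted p = 0.1525). The 586 UMIs behind the 16-cell value are a sum over embryos that includes the 1 at 82.1 copies.

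Its promoter is shown because it holds the known ER stress element. The element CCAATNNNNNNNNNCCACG begins 65 bases before the start and occurs in 0.119% of the 32851 promoters searched on both strands (RefSeq, GRCm38.p6). Its fixed letters are in capitals.
Hspa5, chr2:34772021-34772049, plus strand: ttcaCCAATcggaggcctCCACGacgggg

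Among the mitochondrial genes, limma called no change of Hspa9 or Hspd1. Hspa9, which encodes mortalin, the mitochondrial HSP70, averaged 16.4 to 21 copies at every stage up to 8-cell and 33.2 ± 3.90 (n = 4) at 16-cell. The 8-cell embryos had 18.8, 14.9, 25.1 and 25.1 copies and the 16-cell embryos 35.4, 29.0, 37.5 and 31.0, and these ranges did not overlap. The 8-cell to 16-cell change of Hspa9 was 0.74 ± 0.32 (adjusted p = 0.33).

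Hspd1 (chr1:55077835-55088243, minus strand) and Hspe1 (chr1:55088132-55091307, plus strand) encode HSP60 and its lid HSP10 and are read from a shared, divergent promoter. Hspd1 averaged 6.28 ± 1.66 copies in oocytes (n = 10), 7.78 ± 1.61 in zygotes (n = 9), 12.6 ± 2.58 at E2C (n = 5), 9.46 ± 7.43 at L2C (n = 6), 9.95 ± 3.93 at 4-cell (n = 5), 18.9 ± 5.10 at 8-cell (n = 4) and 29.8 ± 6.23 at 16-cell (n = 4). From 4-cell to 8-cell its change was 0.78 ± 0.38 by limma (adjusted p = 0.166) and not called, whereas it was called by edgeR (1.13) and DESeq2 (1.02) on the UMIs and by limma after TMM rescaling (1.14). Hspe1 ranged from 17.5 to 55.8 copies in oocytes (median 29.5) and from 29.0 to 48.9 in zygotes (median 35.7), and was 30.6, 31.2, 35.4, 61.6 and 59.4 at E2C. It ranged from 5.57 to 36.2 at L2C (median 11.1), and was 25.6, 4.90, 22.9, 27.9 and 12.6 at 4-cell, 36.1, 35.0, 114 and 44.1 at 8-cell, and 63.5, 102, 57.0 and 58.8 at 16-cell. Hspe1 was thus the member with a trough at L2C and 4-cell, where Hspa4 and Hspa5 had their highest means of the 7 stages up to 16-cell. It fell by 1.40 from E2C to L2C (SE 0.34, adjusted p = 2.94e-04) and rose 3.05-fold from 4-cell to 8-cell (log2 1.14 ± 0.36, adjusted p = 0.0215). The rise lost its call without 4-cell embryo 5 (0.91) or 8-cell embryo 3 (0.98) and with a pseudocount of 5 (0.99). In mESC the medians were 120 copies of Hspd1 and 387 of Hspe1, against 44.7 and 105 in the blastocyst.

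The promoter region shared by both genes, upstream of the Hspe1 start and of the proximal Hspd1 start, holds a heat shock element of 4 alternating units, shown on each gene's own strand with the TTC and GAA units in capitals. TTCNNGAANNTTC or GAANNTTCNNGAA occurs in 0.603% of the promoters searched, and both strands show the same site because the promoters overlap. Only 6 members had a promoter in the set searched. Hsp90aa1, Hsp90ab1, Hspa8 and Hspa9 had none there, so whether they hold such elements is not known from this search. The promoter of Hspa4 was searched and held neither a heat shock element nor an ER stress element.
Hspe1, chr1:55088054-55088081, plus strand: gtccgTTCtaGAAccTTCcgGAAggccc
Hspd1, chr1:55088054-55088081, minus strand: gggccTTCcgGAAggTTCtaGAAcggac

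RefSeq lists 2 starts for Hspd1, and the element lies between them. Of the Hspd1 isoforms that reach the first exons, 4 began at the upstream start, inside the first exon of Hspe1 on the other strand, and 2 at the proximal start. The upstream start gave 75% of the 36 UMIs of either kind in oocytes (exact 95% binomial interval 57.8% to 87.9%), 79.2% in zygotes (65.0% to 89.5%), 55.6% at E2C, 76.2% at L2C, 76.7% at 4-cell, 62.3% at 8-cell and 50% at 16-cell (40% to 60%). It gave 26.4% at 32-cell (15.3% to 40.3%), 20.2% in the blastocyst (13.5% to 28.3%) and 1.18% in mESC (0.0298% to 6.38%), and 65.5% in the oocytes of batch 4. The share was thus highest in the early stages and lowest in mESC. These UMIs are pooled over cells, the boundary between the starts was chosen after the values were seen, no test was run, and the intervals cover counting error only.

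**Figure D5:**
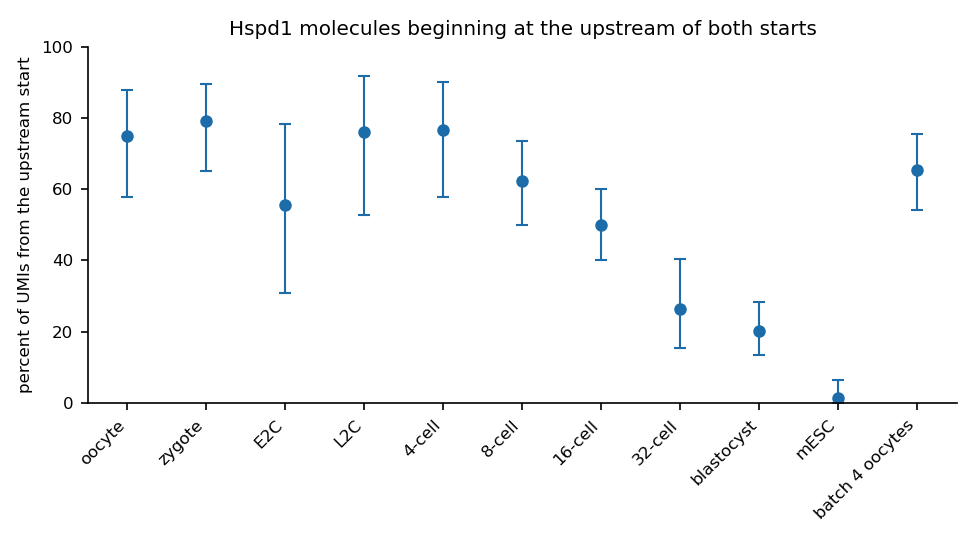
Percent of Hspd1 UMIs beginning at the upstream of both starts (vertical axis, linear) by stage, pooled over cells; whiskers are exact 95% binomial intervals and cover counting error only. The value is 79.2% in zygotes, 50% at 16-cell and 1.18% in mESC.

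Read against all 11682 genes tested, the members were called more often than the background in some comparisons and not in others. From oocyte to zygote 2 of the 9 tested members were called higher and 0 lower, where 2.92% of genes were called higher and 0.325% lower. From zygote to E2C 0 were called higher and 1 lower (4.52% and 2.75% of genes). From E2C to L2C 3 were called higher and 1 lower (25.6% and 22.8%), a share near the background. From L2C to 4-cell 1 was called higher and 0 lower (2.41% and 4.28%), and from 4-cell to 8-cell 4 higher and 2 lower (4.47% and 10.5%). From 8-cell to 16-cell limma called 0 members (1.9% of genes higher and 1.46% lower), 2 of them, Hspa5 and Hspa9, had an unadjusted p under 0.05, and edgeR and DESeq2 on the UMIs each called 1, Hspa5. Ranges of embryos did not overlap for 0, 0, 1, 0, 5 and 2 members in the 6 comparisons, beside 0.0342%, 4.42%, 27.6%, 1.21%, 10.2% and 3.54% of all genes. The median log2 change of the 9 members was 0.78 from 4-cell to 8-cell and 0.67 from 8-cell to 16-cell, beside -0.16 and 0.03 over all genes, and in the 4 earlier comparisons it was 0.19, 0.17, 0.42 and 0.24 beside 0.07, 0.11, 0.03 and -0.06.

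Another scaling moved the balance of calls over all genes. From zygote to E2C 528 genes were called higher and 321 lower as deposited, and 301 and 548 after TMM rescaling, and from 4-cell to 8-cell the split was 522 and 1227 as deposited, and 814 and 736 after it. The median of all genes moved from 0.11 to 0.00 and from -0.16 to 0.00 in these comparisons, and from 0.03 to -0.14 from E2C to L2C. Among the members, TMM rescaling left the 14 called changes in their direction, took the call from Hspa4 and gave one to Hspd1 (log2 1.14) from 4-cell to 8-cell.

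At the isoform level 89 member isoforms were tested. From oocyte to zygote 4 were called, all higher and all of Hsp90aa1 (1.48% of 29409 isoforms were called). From zygote to E2C 10 were called (3 higher and 6 lower of Hsp90aa1, 1 lower of Hsp90ab1; 5.18% of all), from E2C to L2C 15 (13 higher; 26.0%), from L2C to 4-cell 6 (3 higher and 3 lower, of Hsp90ab1, Hspa4 and Hspa5; 4.29%), from 4-cell to 8-cell 28 (25 higher; 7.93%) and from 8-cell to 16-cell 5 (4 higher and 1 lower, although no member was called at the gene level; 1.97%). The full-length Hspa5 isoform PB.41319.1 (9 exons, 2571 bases) went from 2.12 copies at E2C to 25.1 at L2C, and the full-length Hspa8 isoform PB.75373.2 (9 exons, 2703 bases) from 55.8 at 4-cell to 212 at 8-cell. The main Hspe1 isoform PB.1402.1 (4 exons, 1041 bases) went from 53.1 at E2C to 18.4 at L2C. These 3 isoforms each span the coding region of their gene.

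Within 16-cell embryos Hspa5 had the highest median SD of log2(copies + 1) between sister cells (1.85), although single embryos reached 2.44 for Hspa4, 2.14 for Hspa9 and 2.12 for Hspd1. The SD was 1.34 to 2.02 for Hspa5, where counting error alone gave 0.275 to 0.898, and it exceeded the counting value in 4 of 4 embryos. For Hsp90ab1 it was 0.249 to 0.577 beside 0.115 to 0.209, and for Hspa8 0.202 to 0.472 beside 0.11 to 0.182. At E2C the SD of Hsp90aa1 between the sister cells was 0.0741 to 0.264 beside 0.182 to 0.376, above counting error in 0 of 5 embryos. Hspa1a at L2C exceeded it in 4 of 5 embryos, from few UMIs.

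Of 119 other folding genes in 8 lists, 117 were in the table and 109 were tested. From E2C to L2C 44 of the 109 were called higher and 14 lower, where 25.6% and 22.8% of all genes were, and the median log2 change was 0.81 beside 0.03. The higher genes included 7 of 15 subunits of the TRiC chaperonin and prefoldin, 9 of 17 HSP70 family members and exchange factors, and 5 of 8 mitochondrial folding genes. They also included 8 of 18 genes of HSP90 and its co-chaperones, 8 of 27 J-domain proteins and 6 of 17 ER folding genes. Only 1 of 3 small heat shock proteins and 0 of 4 heat shock factors were called higher. The median log2 changes of these last lists were -0.55 and -0.43. In the other 5 comparisons 5, 3, 4, 6 and 3 genes were called higher and 0, 5, 2, 11 and 2 lower, with medians between 0.00 and 0.22.

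Pfdn6, a prefoldin subunit, went from 2.21 ± 1.28 copies at E2C to 47.1 ± 20.5 at L2C (log2 4.12, adjusted p = 4.16e-14), and Dnajb9, a J-domain partner of BiP in the ER, from 5.32 ± 2.11 to 107 ± 23.3 (log2 4.07, adjusted p = 2.16e-15). Dnajb9 then fell from 89.8 ± 20.6 at 4-cell to 26.4 ± 7.98 at 8-cell (adjusted p = 9.90e-05). The ER partner Dnajb9 thus had its high stages at L2C and 4-cell, as Hspa5 did. In the same step to L2C, Dnajb4 went from 82.3 ± 15.9 to 0.709 ± 0.999 (adjusted p = 2.43e-21) and the prefoldin subunit Pfdn4 from 178 ± 28.0 to 12.8 ± 2.58 (adjusted p = 4.60e-16). Nudc, an HSP90 co-chaperone, went from 4.95 ± 3.59 in oocytes to 15.7 ± 8.22 in zygotes (adjusted p = 9.80e-07). From zygote to E2C the protein disulfide isomerases Pdia6 and P4hb went from 20.9 ± 10.8 to 4.01 ± 2.21 and from 12 ± 7.83 to 2.11 ± 1.36 (adjusted p = 1.99e-05 and 3.98e-06), a step at which Hspa5 did not change beyond its error (0.29 ± 0.32). The remaining genes named by the rule were Cct5 and Cct7 (higher) and Fkbp5 (lower) from L2C to 4-cell, Dnajc19 and Fkbp8 (higher) and Dnajb14 (lower) from 4-cell to 8-cell, and Pdia6 (higher), Dnajc21 and Pfdn2 (lower) from 8-cell to 16-cell. Dnajb14 went from 16.2 ± 5.49 to 4.00 ± 4.39 (adjusted p = 9.72e-06), while the adjusted p of Cct5 and Cct7 was 0.0998 and 0.119 and that of the 3 genes of the last step 0.160 to 0.171.

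Over the 43 oocytes, zygotes and embryos, the member pairs with the most similar courses were Hsp90ab1 and Hspa8 (Pearson r of log2(copies + 1) 0.92) and Hspa4 and Hspa5 (0.81), while Hspa5 and Hspe1 had r = -0.31 and Hsp90aa1 and Hsp90ab1 0.44. The genes outside the set with the most similar course were Eef1a1 for Hspa8 (0.96), Bhmt for Hsp90ab1 (0.94), Slc39a4 for Hspa4 (0.93), Snu13 for Hspa5 (0.92), Hmox1 for Hspa1a (0.82), Acp1 for Hsp90aa1 (0.80), Eif4a1 for Hspe1 (0.78), Rfk for Hspd1 (0.76) and Sucla2 for Hspa9 (0.67). The points share stages and depth, so these values are descriptions only.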

How the data were processed

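Single cells of mouse oocytes and embryos were sequenced by the authors with HIT-scISOseq on a PacBio instrument, the reads were processed with SMRT-Link and scISA-Tools and aligned to mm10 with minimap2, reads were assigned to genes with gffcompare, and isoforms were collapsed with cDNA_Cupcake and classified with SQANTI3, with reading frames from TransDecoder and isoforms found in under 5 cells removed. The gene and isoform tables of batches 1 to 3 were deposited by the authors as copies per 100,000 UMIs of a cell, which is CPM divided by 10, with 161 cells each. The isoform table of batch 4 was deposited as UMI counts of 16 intact or split oocytes. The smallest value of each cell is worth 1 UMI, and on that scale 100% of the non-zero values were whole within 0.1 UMI, so UMI counts were recovered for the count tests.

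The GEO labels name 4 runs only, so stage, embryo and cell were read from the column names. Cells of an embryo were averaged, giving 43 oocytes, zygotes and embryos as replicates, and p-values measure the spread between these alone. Nothing in the labels says that they came from separate matings. Cells of the 32-cell stage, blastocyst and mESC carry no embryo number and entered no test. The run of each oocyte and zygote was read from its barcode's final number in the study's supplementary cell list, where each had 1 such number.

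Adjacent stages were compared over all genes or isoforms with at least 1 copy in at least 4 embryos on log2(copies + 1), using limma 3.58.1 with an intensity trend and array weights in R 4.3.3. P-values were adjusted by Benjamini-Hochberg over all features. Isoform shares and shares of molecules ending before the stop codon were tested by limma on the arcsine square root scale, the latter for genes with 10 or more UMIs in at least 3 embryos of both stages. A switch was called where the adjusted p of the isoform was under 0.05 and the Simes value of its gene, also adjusted, under 0.01. Alternatives were other pseudocounts and filters, no array weights, TMM, edgeR 4.0.16 and DESeq2 1.42.0 on summed UMIs, the run as a block, and leaving out each embryo. The scripts were tested on simulated data. The other folding genes named were those with the largest changes among called genes of the lists, at most 2 in each direction and comparison and with at least 10 copies at 1 of the stages. Isoforms were named by the highest mean level of a member (up to 3) or the largest called switch (up to 2), and PB.18355.213, PB.18355.217 and PB.18355.271 were named after their values were seen. For each member the gene with the highest Pearson r was named. The members and lists were chosen with earlier results of these data known.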

Additional observations from a re-analysis of the deposited data

Results flagged for a closer look

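Of 84 groups of 4 to 10 oocytes, zygotes or embryos, 15 held 1 value whose gap to the nearest other was large for the range of its group. For normally distributed values chance gives such a gap in about 1 in 20 groups. Whether the values here have that shape was not tested, and each of the 15 was the highest of its group. The 15 of 84 can therefore not be read against that rate. A group whose other values are all 0 passes whenever 1 embryo has a UMI, so that rate does not apply to it. Levels are copies per 100,000 UMIs.

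For the HSP90 pair these were Hsp90ab1 in oocyte 8 (65.3) and 8-cell embryo 4 (382), and the Hsp90ab1 share before the stop codon in L2C embryo 2 (1.45%), the 1 embryo of its group above 0. For Hspe1 they were oocyte 6 (55.8), 8-cell embryo 3 (114) and 16-cell embryo 2 (102), and for Hspd1 4-cell embryo 1 (16.9). For Hspa5 it was oocyte 2 (4.18) and for Hspa4 zygote 2 (3.61). The scarce pair accounted for the other 6: Hspa1a in zygote 5 (0.302), E2C embryo 3 (2.04) and 4-cell embryo 5 (3.07), and Hspa1b in zygote 5 (0.302), 4-cell embryo 3 (3.57) and 8-cell embryo 1 (0.399), each resting on few UMIs.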

How the results depend on the processing

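At gene level, the members called from oocyte to zygote went from 2 to 1 with a pseudocount of 5, no filter or the run as a replicate block, where Hspa5 was 0.55, 0.98 and 0.97. The block left Hsp90aa1 called, at 1.14. From zygote to E2C 2 were called with a pseudocount of 0.1 or by edgeR (Hspa1a added, 1.85 and 2.66), from L2C to 4-cell 2 by DESeq2 (Hspa8 added) and 1 to 2 on leaving out 1 embryo (2 without 4-cell embryo 5), and from 8-cell to 16-cell 1 without array weights, by edgeR or by DESeq2. Member isoforms called from oocyte to zygote went from 4 to 11 with a pseudocount of 0.1 and 13 by edgeR. From L2C to 4-cell they ranged from 2 to 10 on leaving out 1 embryo (6 with all), with 10 without 4-cell embryo 2 and 2 without 4-cell embryo 4 or 5. From 8-cell to 16-cell they were 2 with a pseudocount of 0.1, 3 without the filter and 1 to 6 on leaving out 1 embryo (5 with all). Members with a switch from zygote to E2C were 1 to 2, with 1 without E2C embryo 2.

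The Hsp90aa1 change from zygote to E2C became 1.25 with molecules reaching the stop codon only. With an end over 500 bases upstream of the full splice match end in place of the stop codon, 1 member was called from zygote to E2C and 0 from E2C to L2C. The Hsp90aa1 changes were then 0.197 and 0 points. PB.18355.252 fell from 47.2% to 5.28% of the gene from zygote to E2C, so this rule did not separate the isoforms that fell from those that rose. It therefore cannot measure the fall, and the cause was not tested. On leaving out 1 embryo, 0 to 1 members were called from E2C to L2C. Of the changes called in neither fit, 53 of 1394 took the other sign under an alternative. The 4985 to 43842 UMIs of a 4-cell embryo's cells limit the precision there.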

Other observations

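The oocytes of batch 4 were also set beside those of batches 1 to 3 by level, on copies per 100,000 isoform UMIs and with no test, since the sets were made and normalized separately. Hsp90aa1, the inducible HSP90, ran from 17.4 to 25.7 in intact, 13.9 to 38.5 in halved and 7.32 to 27.9 in quartered oocytes, against 21.8 to 182 in the earlier oocytes. Hsp90ab1 ran from 54.4 to 71.7, 53.5 to 84.7 and 48.1 to 79 against 45.4 to 81.7. Hspa9, the mitochondrial HSP70, ran from 26.8 to 36.3, 23.8 to 36.0 and 27.5 to 46.6 against 7.64 to 19.7. Hspa8 had medians of 3.43, 2.07 and 2.12 against 12.4 and ran from 0.548 to 3.91, 0 to 3.85 and 0.729 to 28.7 against 5.45 to 24.4. Hspe1 had medians of 16.1, 20.9 and 19.5 against 38.6. The Hsp90ab1 ranges thus overlapped, Hsp90aa1 lay in or under the lower part of its earlier range, Hspa8 and Hspe1 had lower medians, and Hspa9 lay above its earlier range in every column.

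The share of Hsp90aa1 molecules spanning the whole coding region was 2.62% in the pooled oocytes of batches 1 to 3, 3.04% in zygotes, 17.6% at E2C, 38.2% at L2C, 58% at 4-cell, 40.4% at 8-cell, 30.6% at 16-cell, 23.9% at 32-cell, 44.5% in the blastocyst and 70.8% in mESC, and 54.1%, 46% and 53.6% in intact, halved and quartered oocytes of batch 4. For Hsp90ab1 it was 5.60% in the earlier oocytes and 36.7%, 40.7% and 39.9% in batch 4. The part of the library preparation in these values was not tested.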
